A study of Homo sapiens with 6 samples.

Results

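The mitosis and kinetochore genes described here are 53 genes, listed by name, whose products bring a cell into mitosis, build the kinetochore and the spindle, separate the chromosomes and divide the cell. All 53 symbols were found among the 16907 in the files, and all 53 were among the 14853 genes with enough counts to be tested. RNA had been sequenced from LX-2 cells, an immortalised human line of hepatic stellate cells grown in medium with 5% serum. The siControl group received a non-targeting small interfering RNA (Silencer Select Negative Control #1), and the siOGT group received a pool of small interfering RNAs against OGT (ON-TARGETplus SMARTpool), which encodes the enzyme that puts O-GlcNAc, a single sugar, on nuclear and cytoplasmic proteins. Both were used at 20 nM for 72 h and delivered with JetPrime, and each group held 3 libraries, which the labels call biological replicates. As both groups come from the same cell line and from transfected cells, untransfected LX-2 cells and other stellate cells were not compared, and the control RNA and the pool against OGT come from different makers.

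Mitosis is started by cyclin B bound to the kinase CDK1, after which condensins compact the chromosomes and kinesins help to build the spindle. Each chromosome is held by a kinetochore, a protein assembly built on the centromere that grips microtubules, and kinetochores without a proper attachment keep the spindle checkpoint active. The checkpoint restrains the anaphase-promoting complex (APC/C), a ubiquitin ligase that later destroys securin and cyclin B, so that separase can cut cohesin and the cell can divide. Most of these genes are transcribed late in the cell cycle, under the MuvB complex with B-MYB and FOXM1, through promoter elements known as the cell cycle genes homology region (CHR) and the CCAAT box. Stellate cells rest in the healthy liver and divide once they turn into myofibroblasts.

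The libraries held between 25996770 and 27966801 expected counts. Levels are given as CPM, each gene's count scaled to a common library total. OGT fell from 145 ± 28.9 CPM in siControl to 32.0 ± 6.94 CPM in siOGT (SD, n = 3 each), and its log2 fold change was -2.18 (SE 0.073, adjusted p = 2.71e-12 in edgeR). Of 11 stellate cell and myofibroblast markers, 8 averaged 10 CPM or more, and the summed level of the list ranged from 8293 to 9962 CPM in siControl and from 7898 to 9808 CPM in siOGT. The sum covers changes in both directions, as 4 of the 10 markers tested were called lower (PDGFRB, COL1A1, COL1A2 and COL3A1) and 2 higher (TAGLN and SPARC), by log2 fold changes from -0.64 for COL3A1 to 0.44 for SPARC. The defining markers DES and LRAT were below 1 CPM in every library, and ACTA2 lay between 4.83 and 9.69 CPM. Hepatocyte markers summed to at most 4.48 CPM and endothelial markers to at most 7.86 CPM in any library. Of these, VWF, at 4.01 CPM or less, was called lower (log2 fold change -0.93, adjusted p = 0.0108 in edgeR). The sum of 88.6 to 129 CPM for cholangiocyte markers came mainly from SOX9. The 5 leukocyte and macrophage markers summed to 131 to 162 CPM in siControl and 176 to 208 CPM in siOGT, almost all of it CD68, a lysosomal protein, which ranged from 123 to 154 CPM and from 168 to 201 CPM. CD68 was called higher in siOGT (log2 fold change 0.46, adjusted p = 0.000947 in edgeR). The defining leukocyte marker PTPRC stayed below 1 CPM, and CD163 and CD3E were at or near 0, in every library.

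The promoters of 7 genes are shown first, because many of the mitosis genes carry the same short letters around their start site. They are the genes with the lowest or the highest log2 fold change of their role group that had a single start site in RefSeq (GRCh38.p14) and at most 30 bases of any annotated exon among the 150 bases before it. Capitals mark the letters TTTGAA or TTTAAA (the 2 forms of the CHR that were searched) and CCAAT, on either strand, so that ATTGG is CCAAT and TTCAAA is TTTGAA on the opposite strand. The sequences run 5′ to 3′ along the gene and end at the base before the start site.
KIF20A, chr5:138178962-138179111, plus strand: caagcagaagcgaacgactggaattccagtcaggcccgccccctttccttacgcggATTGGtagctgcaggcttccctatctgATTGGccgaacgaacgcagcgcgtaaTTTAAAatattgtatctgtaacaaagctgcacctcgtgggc
DLGAP5, chr14:55191586-55191735, minus strand: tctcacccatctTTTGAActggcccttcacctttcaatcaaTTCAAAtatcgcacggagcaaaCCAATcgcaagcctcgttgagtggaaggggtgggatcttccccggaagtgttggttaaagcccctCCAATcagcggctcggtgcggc
CENPA, chr2:26785906-26786055, plus strand: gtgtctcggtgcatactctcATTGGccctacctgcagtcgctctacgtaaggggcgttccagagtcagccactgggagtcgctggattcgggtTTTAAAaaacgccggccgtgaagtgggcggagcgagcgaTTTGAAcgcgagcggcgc
INCENP, chr11:62123861-62124010, plus strand: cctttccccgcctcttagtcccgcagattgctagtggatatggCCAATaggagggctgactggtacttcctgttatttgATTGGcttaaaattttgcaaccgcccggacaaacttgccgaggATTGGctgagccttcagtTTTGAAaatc
TOP2A, chr17:40417897-40418046, minus strand: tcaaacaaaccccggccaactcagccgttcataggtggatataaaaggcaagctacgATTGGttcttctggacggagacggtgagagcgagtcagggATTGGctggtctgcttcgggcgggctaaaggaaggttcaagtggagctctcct
ESPL1, chr12:53268149-53268298, plus strand: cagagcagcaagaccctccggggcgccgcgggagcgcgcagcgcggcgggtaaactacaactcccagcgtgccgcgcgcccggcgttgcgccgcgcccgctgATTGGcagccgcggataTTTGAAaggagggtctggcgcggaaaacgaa
NCAPH, chr2:96335616-96335765, plus strand: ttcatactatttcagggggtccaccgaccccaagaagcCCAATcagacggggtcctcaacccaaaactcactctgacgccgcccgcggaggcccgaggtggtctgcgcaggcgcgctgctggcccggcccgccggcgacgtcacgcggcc
The genes KIF20A, DLGAP5, CENPA, INCENP and TOP2A were called lower in siOGT, whereas ESPL1 and NCAPH were not called. ESPL1 carries TTTGAA at position -31 and CCAAT at -48, as do many genes that were called, and NCAPH carries CCAAT alone in the stretch shown, as does TOP2A. Outside that stretch TOP2A also carries TTTGAA, at -194 and -151, and NCAPH carries TTTAAA at 32.

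As a set, the mitosis genes were modestly lower when OGT was silenced. With a call defined as an adjusted p of at most 0.05 over all 14853 genes tested, 36 of the 53 were called lower in siOGT, 1 was called higher (CDC25B) and 16 were not called. This is 67.9% called lower, beside 12.7% of all genes tested called lower and 12.7% called higher. As the mitosis genes are well expressed, with means from 15.5 to 902 CPM, the share among expressed genes, with means of 10 CPM or more, is also of use, and there 16.2% were called lower. The median log2 fold change over the 53 genes was -0.24, a change of -15.6%, and over all genes tested it was 0.007. In bulk RNA, fewer cells in mitosis and less RNA of each gene per cell cannot be told apart.

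The fall was small for each gene but ran in the same direction in the 3 pairs of libraries with the same replicate number. The log2 ratio of siOGT to siControl was below 0 in all 3 pairs for 43 of the 53 genes, beside 26.6% of all genes tested, and above 0 in all 3 pairs for CDC25B alone. For 39 genes every siOGT library lay below every siControl library, beside 11.8% of all genes tested, and no gene showed the opposite. These 39 comprise 33 of the 36 genes called lower and 6 that were not called. The median log2 ratio over the 53 genes was -0.30, -0.18 and -0.23 in pairs 1, 2 and 3. No gene changed by 2-fold, and 3 genes, KIF20A, DLGAP5 and PTTG1, had a log2 fold change of -0.5 or lower before rounding.

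**Figure D1:**
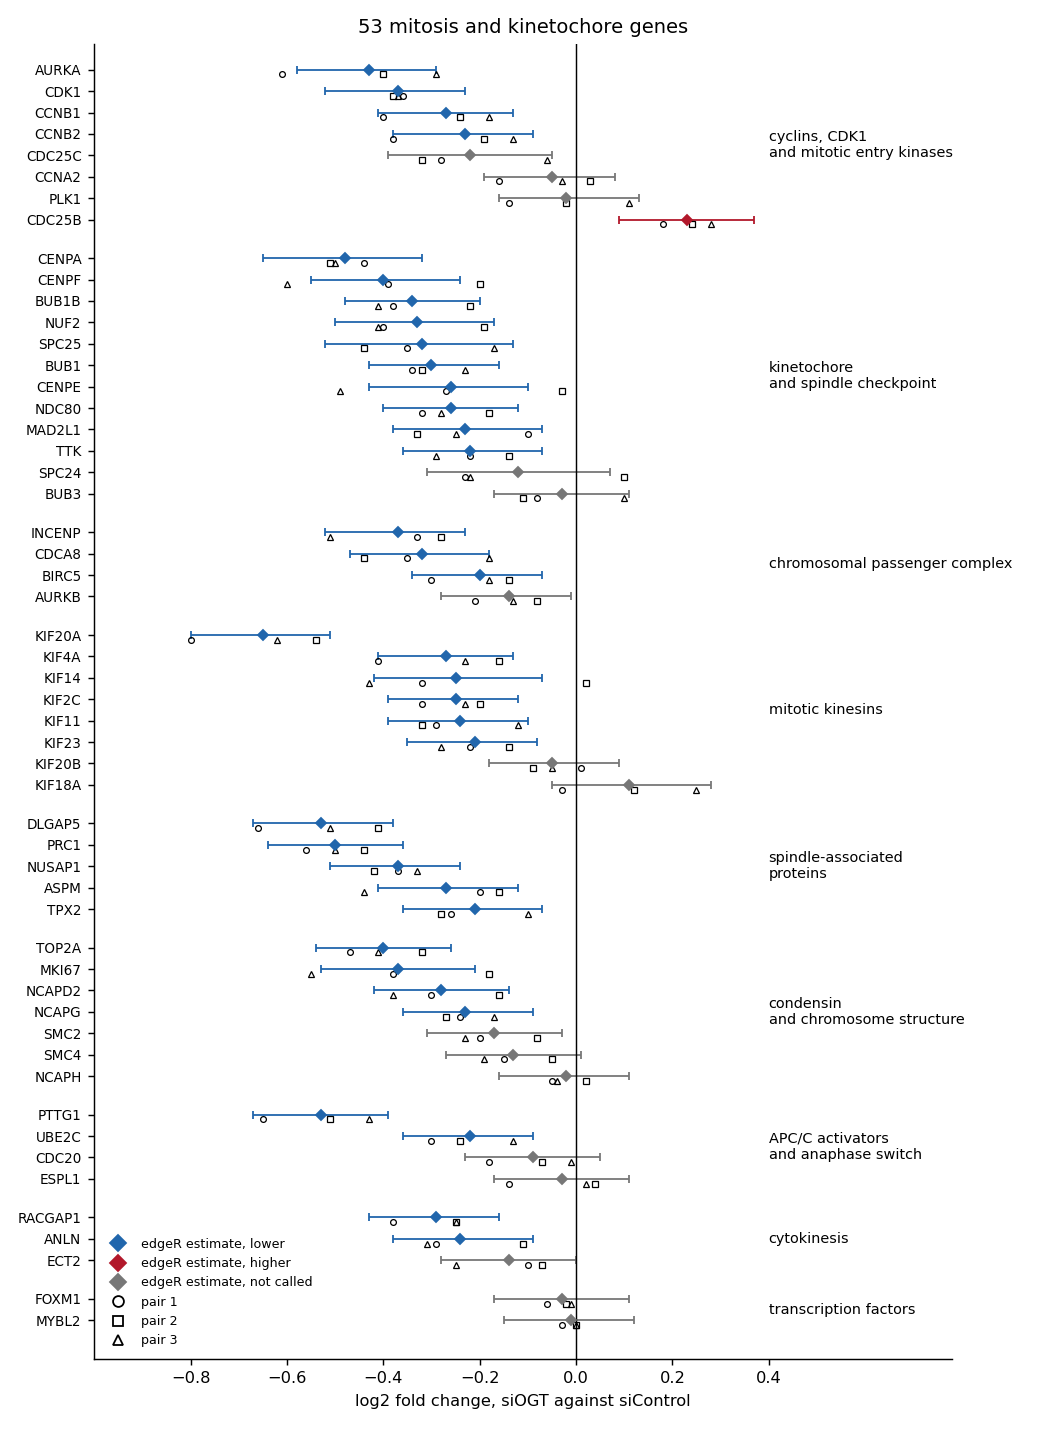
Log2 fold change of siOGT against siControl for each of the 53 genes, grouped by role. Diamonds are edgeR estimates with their 95% confidence intervals, in blue for genes called lower, in red for the gene called higher and in grey for genes not called, and the open circle, square and triangle are the log2 ratios in pairs 1, 2 and 3. Nearly all diamonds lie left of 0, from -0.65 for KIF20A, and only KIF18A and CDC25B lie right of it, at 0.11 and 0.23.

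Summed over the 53 genes, the siControl libraries held 12027, 11860 and 11514 CPM and the siOGT libraries 10106, 10714 and 10058 CPM. The sums did not overlap between the groups. With each gene set against its own siControl mean, the median level was 1.039, 1.008 and 0.967 in the siControl libraries and 0.851, 0.868 and 0.813 in the siOGT libraries. The siControl library of replicate 1 was the highest of its group for 34 of the 53 genes, and pair 1 gave the lowest log2 ratio for 26 of them.

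The cyclins, CDK1 and the kinases and phosphatases of mitotic entry moved in different ways. Of these 8 genes, 4 were called lower (AURKA, CDK1, CCNB1 and CCNB2), 1 was called higher and 3 were not called. CCNB1, the main mitotic cyclin, was at 169, 167 and 153 CPM in siControl and 128, 142 and 135 CPM in siOGT, a log2 fold change of -0.27 (SE 0.067, adjusted p = 0.00594). All siOGT libraries lay below all siControl libraries. Its partner kinase CDK1 was at 51.2, 49.0 and 45.4 CPM in siControl and 39.9, 37.6 and 35.1 CPM in siOGT, a log2 fold change of -0.37 (SE 0.069, adjusted p = 0.000832). The 3 pairs lay close together for CDK1, with log2 ratios between -0.38 and -0.36.

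AURKA, the kinase that matures centrosomes and activates PLK1, fell most in this group. It was at 247, 232 and 212 CPM in siControl and 162, 176 and 173 CPM in siOGT, a log2 fold change of -0.43 (SE 0.071, adjusted p = 0.000275). CCNB2, the second B-type cyclin, had a log2 fold change of -0.23 (adjusted p = 0.0174). CDC25B, a phosphatase that starts CDK1 activation, was the exception and rose. Its levels were 671, 830 and 770 CPM in siControl and 758, 978 and 935 CPM in siOGT, a log2 fold change of 0.23 (SE 0.066, adjusted p = 0.0161). The groups overlapped for CDC25B, since the siOGT library of replicate 1 was below 2 siControl libraries, yet each siOGT library was above its own pair. CDC25B was no longer called when replicate 1 (adjusted p = 0.126) or replicate 2 (0.0588) was left out, or without pairing (0.339).

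CDC25C, the related phosphatase that completes CDK1 activation, was not called. It was at 31.2, 30.2 and 27.2 CPM in siControl and 25.7, 24.2 and 26.1 CPM in siOGT, a log2 fold change of -0.22 (adjusted p = 0.0532). The groups did not overlap, and CDC25C was called when genes with low counts were kept (adjusted p = 0.0408) or replicate 3 was left out (0.0174). CCNA2, the cyclin of S phase and early mitosis, was at 127, 126 and 117 CPM in siControl and 114, 128 and 114 CPM in siOGT, a log2 fold change of -0.05 (adjusted p = 0.591). PLK1, the polo-like kinase that acts from mitotic entry to cytokinesis, was at 266, 275 and 253 CPM in siControl and 241, 270 and 274 CPM in siOGT. The groups overlapped for CCNA2 and PLK1, and the log2 fold change of PLK1 was -0.02 with a 95% confidence interval of -0.16 to 0.13 (adjusted p = 0.886).

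**Figure D2:**
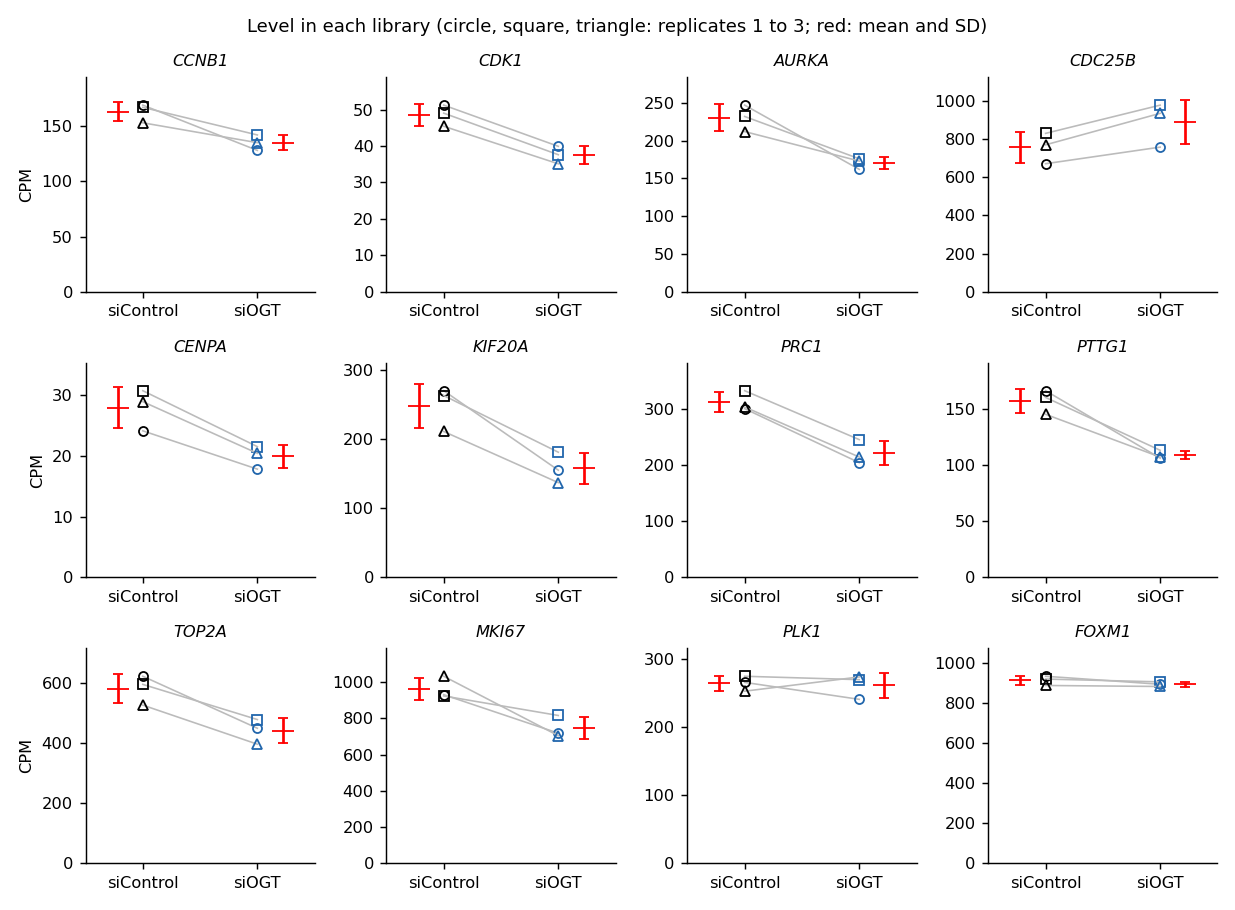
Level in CPM of 12 of the genes in each library, siControl in black and siOGT in blue, with each axis starting at 0. Circles, squares and triangles are replicates 1, 2 and 3, grey lines join the libraries of a pair, and red bars are the mean and SD of 3 libraries. The lines of CDK1, KIF20A and PTTG1 all fall, those of CDC25B all rise, and those of PLK1 and FOXM1 are close to flat.

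Of the 12 kinetochore and checkpoint genes, 10 were called lower and none higher, with a median log2 fold change of -0.28, and SPC24 and BUB3 were not called. The lowest was CENPA, the histone H3 variant that marks the centromere, at 24.1, 30.7 and 28.9 CPM in siControl and 17.8, 21.5 and 20.4 CPM in siOGT. This was a log2 fold change of -0.48 (SE 0.079, adjusted p = 0.000275), with no overlap between the groups. In the gene annotation 138 exonic bases of CENPA overlap SLC35F6 on the same strand.

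Most of the outer kinetochore genes among the 53 were called lower. CENPF, a large protein of the outer kinetochore, had a log2 fold change of -0.40 (adjusted p = 0.000862), and CENPE, the kinesin that carries chromosomes to the spindle equator, one of -0.26 (adjusted p = 0.0183). In edgeR the call of CENPE was lost without replicate 1 (adjusted p = 0.102) or replicate 3 (0.116). The NDC80 complex, a rod of 4 subunits that binds microtubules, was measured in full. NDC80 itself had a log2 fold change of -0.26 (adjusted p = 0.00888), NUF2 one of -0.33 (adjusted p = 0.00419) and SPC25 one of -0.32 (adjusted p = 0.0175). The fourth subunit, SPC24, was not called, at 20.3, 20.4 and 22.4 CPM in siControl and 17.4, 21.8 and 19.1 CPM in siOGT (log2 fold change -0.12, adjusted p = 0.372). It was among the genes with the fewest counts, and the second siOGT library lay above 2 of the siControl libraries.

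Of the checkpoint genes, BUB1 and BUB1B, which encode checkpoint proteins at the kinetochore, fell by log2 fold changes of -0.30 (adjusted p = 0.00253) and -0.34 (adjusted p = 0.00138). For BUB1B the counts held divided reads in all 6 libraries, and 457 of its exonic bases overlap PAK6 and the read-through gene BUB1B-PAK6. Its level is therefore less certain, as are those of the other genes with divided reads. TTK, the MPS1 kinase that starts checkpoint signalling, had a log2 fold change of -0.22 (adjusted p = 0.0264). MAD2L1, the MAD2 protein that inhibits the APC/C activator, had one of -0.23 (adjusted p = 0.0317). The calls of MAD2L1, TTK and SPC25 were lost in DESeq2 with the same pairing (adjusted p = 0.105, 0.0711 and 0.0967). In edgeR that of SPC25 was also lost without replicate 1 (0.105) or replicate 2 (0.116). TTK lost its call there without replicate 1 (0.149) or replicate 3 (0.0652). MAD2L1 lost it without replicate 1 (0.0548), replicate 2 (0.191) or replicate 3 (0.0653), and with library totals alone (0.0542). BUB3, which brings BUB1 and BUB1B to the kinetochore, was at 149, 171 and 156 CPM in siControl and 141, 159 and 167 CPM in siOGT. The groups overlapped, and its log2 fold change was -0.03 (adjusted p = 0.819).

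The chromosomal passenger complex, which corrects faulty attachments, holds the kinase AURKB and 3 partners. INCENP, its scaffold, was at 237, 239 and 229 CPM in siControl and 188, 197 and 161 CPM in siOGT, a log2 fold change of -0.37 (SE 0.068, adjusted p = 0.00065). CDCA8 (borealin) and BIRC5 (survivin), which bring the complex to the centromere, had log2 fold changes of -0.32 (adjusted p = 0.00213) and -0.20 (adjusted p = 0.0283). AURKB itself was at 101, 91.7 and 96.8 CPM in siControl and 86.8, 86.7 and 88.5 CPM in siOGT, a log2 fold change of -0.14 (adjusted p = 0.121). The groups did not overlap for any of the 4 genes, including AURKB, which was not called.

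Of the 8 mitotic kinesins, motor proteins that move along or take apart microtubules, 6 were called lower. KIF20A, the kinesin that carries the passenger complex to the midzone of the anaphase spindle, showed the lowest log2 fold change of all 53 genes, -0.65 (SE 0.069, adjusted p = 5.05e-06). Its levels were 270, 263 and 211 CPM in siControl and 155, 181 and 137 CPM in siOGT, with no overlap. The 5 others called lower lay between log2 fold changes of -0.27 and -0.21. They were KIF4A, which acts with PRC1 at the midzone (-0.27, adjusted p = 0.00745), KIF2C, which removes tubulin from microtubule ends (-0.25, adjusted p = 0.00787), and KIF14, a kinesin of cytokinesis (-0.25, adjusted p = 0.0431). KIF11, the motor that separates the spindle poles, had a log2 fold change of -0.24 (adjusted p = 0.0122) and KIF23, a subunit of centralspindlin, one of -0.21 (adjusted p = 0.0223). KIF14 was the gene called lower whose pairs did not all point downward, and its call was lost in 7 of the 10 alternative analyses at this threshold.

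The kinesins KIF18A and KIF20B were not called. KIF18A, which dampens chromosome movements at the spindle equator, was at 29.2, 27.7 and 29.3 CPM in siControl and 28.5, 30.2 and 34.8 CPM in siOGT, a log2 fold change of 0.11 (adjusted p = 0.321). KIF20B, a relative of KIF20A that acts late in cytokinesis, was at 66.4, 67.1 and 68.7 CPM in siControl and 66.7, 63.2 and 66.2 CPM in siOGT, a log2 fold change of -0.05 (adjusted p = 0.666). The groups overlapped for both.

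All 5 spindle-associated genes were called lower, with a median log2 fold change of -0.37. DLGAP5 (HURP), which stabilises microtubules near chromosomes, was at 142, 119 and 109 CPM in siControl and 89.8, 89.6 and 76.6 CPM in siOGT, a log2 fold change of -0.53 (SE 0.068, adjusted p = 3.21e-05). PRC1, which cross-links the microtubules of the midzone, had a log2 fold change of -0.50 (SE 0.065, adjusted p = 3.31e-05). The groups did not overlap for either gene. NUSAP1, a microtubule bundling protein, had a log2 fold change of -0.37 (adjusted p = 0.000439), and ASPM, a spindle pole protein, one of -0.27 (adjusted p = 0.00939). The smallest fall was that of TPX2, the activator of AURKA on the spindle, at 559, 557 and 531 CPM in siControl and 466, 457 and 497 CPM in siOGT (log2 fold change -0.21, adjusted p = 0.0272). ASPM was the gene of this group whose libraries overlapped between the groups.

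The genes of chromosome structure were divided. TOP2A, the topoisomerase that untangles sister chromatids, was at 621, 594 and 525 CPM in siControl and 448, 477 and 395 CPM in siOGT, a log2 fold change of -0.40 (SE 0.067, adjusted p = 0.000334). MKI67, which encodes the proliferation marker Ki-67 on the surface of mitotic chromosomes, was at 931, 924 and 1033 CPM in siControl and 718, 816 and 704 CPM in siOGT, a log2 fold change of -0.37 (SE 0.075, adjusted p = 0.00167). Neither gene overlapped between the groups. In condensin I, which compacts mitotic chromosomes, NCAPD2 (-0.28, adjusted p = 0.00585) and NCAPG (-0.23, adjusted p = 0.0158) were called lower on the log2 scale.

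The third regulatory subunit of condensin I, NCAPH, was not called. It was at 95.7, 92.4 and 84.9 CPM in siControl and 92.4, 93.7 and 82.7 CPM in siOGT, a log2 fold change of -0.02 (adjusted p = 0.839) with overlapping groups. The ATPase subunits SMC2 and SMC4, which condensin I shares with condensin II, were not called either, although their groups did not overlap. SMC2 was at 176, 168 and 179 CPM in siControl and 153, 159 and 153 CPM in siOGT (log2 fold change -0.17, adjusted p = 0.0631). SMC4 was at 537, 538 and 583 CPM in siControl and 484, 519 and 513 CPM in siOGT (log2 fold change -0.13, adjusted p = 0.168).

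At the switch to anaphase, PTTG1, which encodes securin, the inhibitor of separase, fell clearly. It was at 166, 160 and 145 CPM in siControl and 106, 113 and 107 CPM in siOGT, a log2 fold change of -0.53 (SE 0.067, adjusted p = 2.51e-05), with no overlap. ESPL1, which encodes separase itself, was at 153, 152 and 144 CPM in siControl and 138, 156 and 146 CPM in siOGT, a log2 fold change of -0.03 (adjusted p = 0.807) with overlapping groups. UBE2C, the ubiquitin-conjugating enzyme of the APC/C, had a log2 fold change of -0.22 (adjusted p = 0.0174). CDC20, the APC/C activator that the checkpoint inhibits, was at 349, 337 and 334 CPM in siControl and 309, 321 and 331 CPM in siOGT, a log2 fold change of -0.09 (adjusted p = 0.369). Its groups did not overlap, but its 95% confidence interval included 0.

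For cytokinesis, RACGAP1, the other subunit of centralspindlin, was at 232, 244 and 230 CPM in siControl and 178, 205 and 193 CPM in siOGT, a log2 fold change of -0.29 (SE 0.065, adjusted p = 0.00299). ANLN, the actin-binding scaffold of the contractile ring, had a log2 fold change of -0.24 (adjusted p = 0.0159). ECT2, the exchange factor that activates RhoA at the cell equator, was at 170, 158 and 160 CPM in siControl and 158, 151 and 134 CPM in siOGT, a log2 fold change of -0.14 (adjusted p = 0.125). All 3 genes were lower in each pair, and ECT2 alone was not called.

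The transcription factors that switch on these genes were measured at nearly equal levels in both groups. FOXM1 was at 932, 918 and 886 CPM in siControl and 892, 904 and 881 CPM in siOGT, a log2 fold change of -0.03 with a 95% confidence interval of -0.17 to 0.11 (adjusted p = 0.778). MYBL2, which encodes B-MYB, was at 633, 614 and 625 CPM in siControl and 618, 613 and 623 CPM in siOGT, a log2 fold change of -0.01 with an interval of -0.15 to 0.12 (adjusted p = 0.901). Neither interval reached the median of the 53 genes, -0.24, which was also true of other genes not called, such as PLK1, BUB3, NCAPH and ESPL1. RNA levels do not report on the activity of the proteins.

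Partners of the same complex did not always move alike. The pairs of genes compared here were chosen after their values were seen, so the differences are a description, given as the difference in log2 ratio within each pair of libraries. PTTG1 fell more than ESPL1, its binding partner, by -0.51, -0.55 and -0.45 (mean -0.50 ± 0.05, SD, n = 3). CDK1 fell more than CCNA2 by a mean of -0.32 ± 0.11, and NCAPD2 more than NCAPH by -0.26 ± 0.08. NUF2 was lower relative to SPC24 by -0.21 ± 0.06, INCENP relative to AURKB by -0.23 ± 0.13, PRC1 relative to KIF4A by -0.23 ± 0.07 and AURKA relative to TPX2 by -0.22 ± 0.12. The centralspindlin subunits RACGAP1 and KIF23 differed by -0.08 ± 0.10, with pairs on both sides of 0.

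Levels per kilobase of canonical transcript in siControl differed widely between the genes. UBE2C was highest, at 306 CPM per kb, followed by FOXM1 (257), CDC25B (243), MYBL2 (234), PTTG1 (220) and CDC20 (206). The lowest were MAD2L1, at 7.85 CPM per kb, and KIF14, at 5.02 CPM per kb. Genes that fell and genes that were not called occur at the top of this order, as PTTG1 and FOXM1 show. These values rest on transcript lengths from GENCODE 44 and not on the isoforms in these cells.

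**Figure D3:**
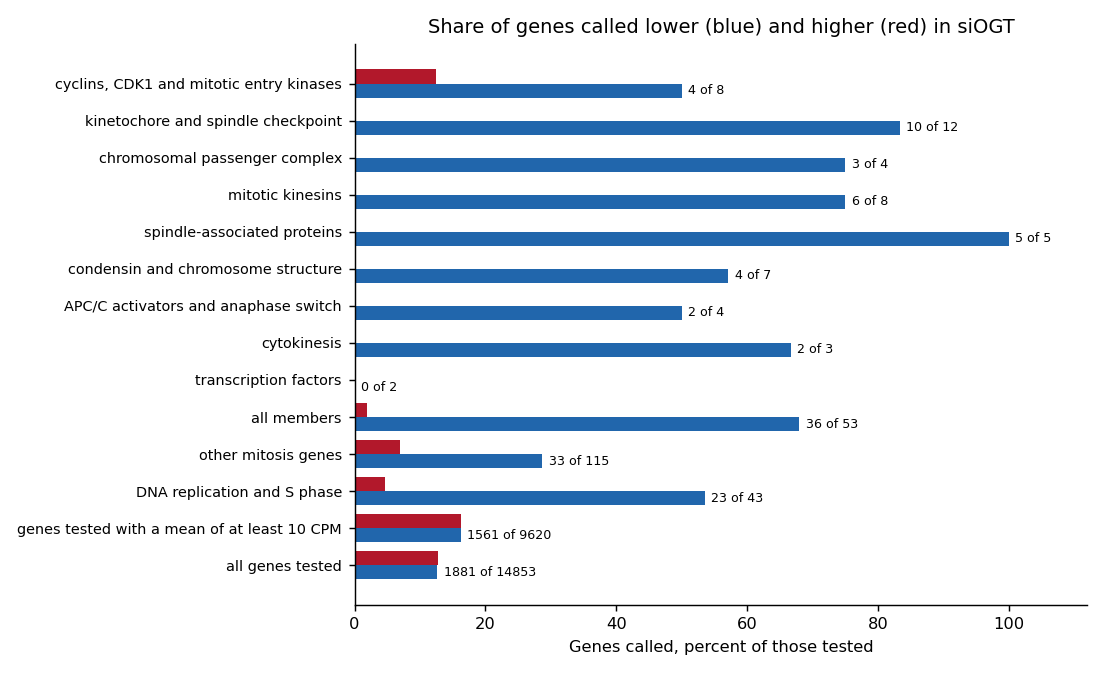
Share of genes called lower (blue) and higher (red) in siOGT, in percent of the genes tested, for the 9 role groups, all 53 mitosis genes, 115 other mitosis genes, 43 genes of DNA replication and 2 backgrounds. Numbers beside the bars give the number called lower of the number tested. The share called lower is 67.9% for the 53 genes, 28.7% for the other mitosis genes and 12.7% for all genes tested.

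A further 115 genes of mitosis, in 8 lists by function, were examined in the same fit. Of these, 33 (28.7%) were called lower and 8 higher, with a median log2 fold change of -0.12, so they lay between the 53 genes and the background of 12.7%. In the inner kinetochore 5 of 17 were called lower and none higher, from CENPM at -0.39 on the log2 scale (adjusted p = 0.00208) to CENPH and CENPP at 0.21 (adjusted p = 0.104 and 0.0698). In the outer kinetochore and checkpoint 3 of 14 were called lower and 1 higher, from ZWINT at -0.39 (adjusted p = 0.000374) to MIS12, a subunit of the complex that joins inner and outer kinetochore, at 0.21 (adjusted p = 0.0458). The centrosome and spindle list had 9 of 22 called lower and none higher. Its lowest gene was KIFC1, a kinesin that gathers centrosomes, at -0.57 (adjusted p = 1.36e-05), and its highest was SASS6, a centriole protein, at 0.24 (adjusted p = 0.0507).

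Among G2/M regulators 7 of 16 were called lower and 1 higher. PIMREG had the lowest log2 fold change, -0.72 (adjusted p = 2.17e-05), and its siOGT level in pair 1 was lower still, with a log2 ratio of -1.06. CDC25A, the phosphatase relative of CDC25B and CDC25C that also acts at the entry into S phase, was called higher at 0.35 (adjusted p = 0.00123). Its levels were 53.2 ± 10.2 CPM in siControl and 67.9 ± 15.1 CPM in siOGT. Condensin II had 2 of 3 called lower, from NCAPG2 at -0.32 (adjusted p = 0.00178) to NCAPD3 at -0.17 (adjusted p = 0.0592).

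The APC/C and cohesin lists moved little as a whole. Of 17 APC/C genes, 3 were called lower and 1 higher, with a median log2 fold change of -0.06, from ANAPC15 at -0.33 (adjusted p = 0.0156) to ANAPC10 at 0.27 (adjusted p = 0.102). The gene called higher was CDC23, an APC/C subunit, at 0.21 (adjusted p = 0.0237). Of 15 cohesin genes, 2 were called lower and 3 higher, with a median of -0.04. SGO2, the shugoshin that protects cohesin at centromeres, was lowest at -0.41 (adjusted p = 0.000331). STAG2, a core cohesin subunit, was highest at 0.34 (adjusted p = 0.000802), and ESCO1, which acetylates cohesin, and MAU2, which loads it, were called higher at 0.26 and 0.22 (adjusted p = 0.0284 and 0.0218).

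The DREAM and MuvB list, the complex that represses or activates these promoters through the cell cycle, had 2 of 11 called lower and 2 higher, with a median log2 fold change of 0.09. RBBP4, a histone-binding subunit shared with other complexes, was lowest at -0.32 (adjusted p = 0.00173). The MuvB subunits LIN37 and LIN9 were called higher, at 0.50 (adjusted p = 0.000386) and 0.27 (adjusted p = 0.0402). LIN37 was at 17.3 ± 1.89 CPM in siControl and 24.5 ± 3.99 CPM in siOGT. The highest value of the list, 1.38 for E2F5, rests on at most 5 counts in a library and was not called (adjusted p = 0.4).

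Genes of DNA replication and S phase, which are switched on earlier in the cell cycle, gave a comparison list. Of 43 genes, 23 (53.5%) were called lower and 2 higher, with a median log2 fold change of -0.25. They ranged from POLE2, a subunit of DNA polymerase epsilon, at -0.70 (adjusted p = 0.000622) to PRIM1, a primase subunit, at 0.36 (adjusted p = 0.00566). The other gene called higher was CDT1, which licenses replication origins, at 0.21 (adjusted p = 0.0358). The median fall of the mitosis genes was thus not larger than that of the replication genes, and no test of a difference between the lists was made.

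The letters marked in the promoters above were then counted. RefSeq promoter windows of 300 bases, from 250 before to 50 after the start site, were found for 45 of the 53 genes, and 37 of them had a single window. The promoter set used here held no window for UBE2C, AURKA, RACGAP1, TPX2, BIRC5, TTK, BUB3 and FOXM1. TTTGAA occurred on either strand in 28 of the 37 windows (75.7%), beside 771 of 8115 windows (9.5%) of other tested genes with a single window. CCAAT occurred in 29 of 37 (78.4%, beside 37.2%), TTTAAA in 13 of 37 (35.1%, beside 7.52%), and TTTGAA and CCAAT together in 23 of 37 (62.2%, beside 4.1%). Matches of different letters overlapped by 1 base in 2 windows, those of CDCA8 and MKI67. Among the other mitosis genes 30 of 73 windows (41.1%) held TTTGAA.

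**Figure D4:**
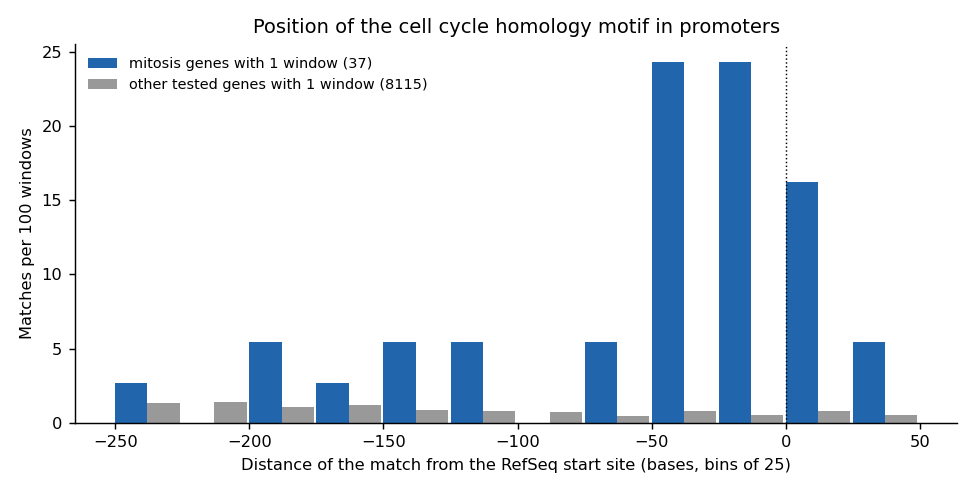
Number of TTTGAA matches on either strand per 100 promoter windows, by distance from the RefSeq start site in bins of 25 bases, for 37 mitosis genes (blue) and 8115 other tested genes (grey). The dotted line is the start site. Matches in the mitosis genes crowd from 50 bases before to 25 bases after the start site, at 24.3 per 100 windows in each of the bins before the site and 16.2 in the first bin after it, whereas those of the other genes lie between 0.481 and 1.38 per 100 windows in every bin.

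The letters occurred in genes that were called lower and in genes that were not, and no test of their shares was made. Of the 28 genes with a single window that were called lower, 23 (82.1%) held TTTGAA, and of the 9 that were not called lower, 5 (55.6%) did, namely CDC20, KIF20B, KIF18A, ESPL1 and PLK1. TTTGAA starting between 60 bases before and 44 bases after the start site was found in 71.4% and 44.4%, TTTAAA anywhere in the window in 39.3% and 22.2%, and CCAAT in 75.0% and 88.9%. In 17 of all 37 windows TTTGAA started within the 60 bases before the start site. MYBL2 held none of the letters. KIF20A, the gene that fell most, held TTTAAA and CCAAT but not TTTGAA. Outside the 53 genes, 333 tested genes held both TTTGAA and CCAAT, of which 15.0% were called lower and 12.3% higher, with a median log2 fold change of -0.01. Genes without TTTGAA were called lower in 12.2% of cases. A match of letters is a description and does not show that a factor binds there.

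**Figure D5:**
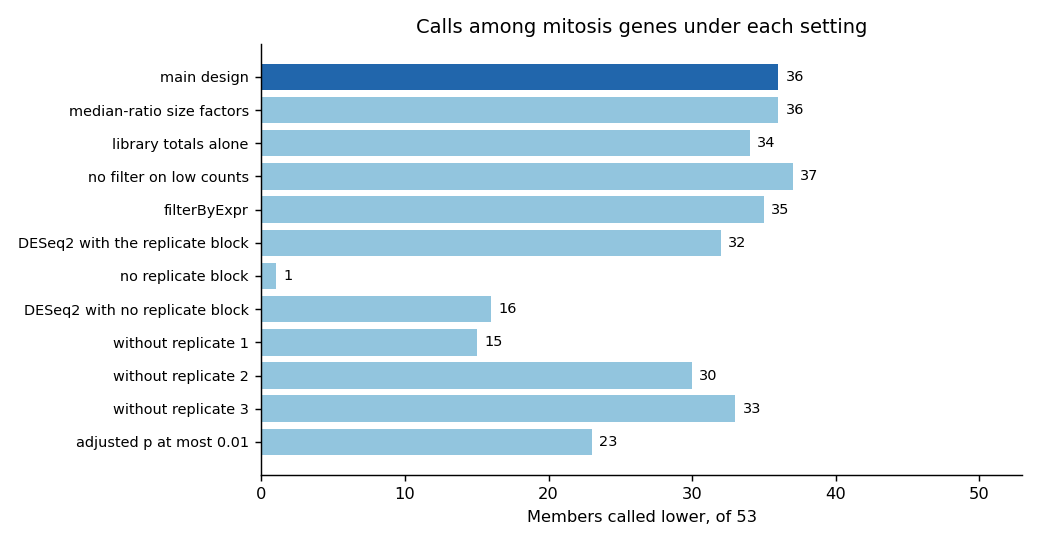
Number of the 53 genes called lower in siOGT under each way of analysing the counts. The dark bar is the analysis used in the text, with 36 genes, and the shortest bar, with 1 gene, is the edgeR fit without pairing.

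How many of the 53 genes were called depended mostly on pairing and on replicate 1. Without the replicate block edgeR called 1 gene lower, PTTG1 (adjusted p = 0.0433), where 0.397% of all genes were called lower. At an unadjusted p of at most 0.05, 30 of the 53 were lower, and the share of all genes there was not counted. DESeq2 called 32 lower with the block, where 8.74% of all genes were called lower. It called 16 lower without the block, where 461 of all 14853 genes were called lower. Without replicate 1, 15 remained called, where 6.54% of all genes were called lower. These 15 were CDK1, AURKA, BUB1B, CENPA, CENPF, INCENP, CDCA8, KIF20A, PRC1, ASPM, DLGAP5, NUSAP1, TOP2A, MKI67 and PTTG1. Without replicate 2, the genes that lost their call in edgeR were MAD2L1, SPC25, KIF11, TPX2, NCAPG and UBE2C. Without replicate 3, they were MAD2L1, TTK, CENPE and KIF14. In the analysis used here and its 10 alternatives, between 49 and 51 of the 53 genes had a log2 fold change below 0. Among all 14853 genes tested, 7275 had one below 0 in the analysis used here. The alternatives use the same libraries or part of them, so they are not independent evidence on the direction.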

How the data were processed

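RNA of LX-2 cells was sequenced in 3 siControl and 3 siOGT libraries. According to the methods, stranded libraries were made by the authors from oligo-dT enriched RNA and sequenced paired-end. The reads were trimmed where necessary, aligned with Bowtie2 2.3.5.1 to hg38 and counted strand-specifically with RSEM 1.3.1. The deposited values are expected counts (estimated counts per gene, not normalized), in which the authors' counting divides a read between the genes it matches, so members that share reads with near copies are less certain. Between 85.8% and 87.7% of the values were whole. Divided reads occurred in some library for 7 of the 53 genes, AURKA, BUB1B, SPC24, SPC25, KIF4A, KIF14 and ECT2. A deposited table of the authors' own DESeq2 comparison (fold changes and p-values) was not used.

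Expected counts were rounded. As in the study, genes whose counts summed to less than 10 were left out (2054 genes, 0.00447% of counts). A quasi-likelihood model (edgeR 4.0.16, R 4.3.3, two-sided F test) was fitted on all 14853 genes with TMM scaling and the replicate number as a block, with Benjamini-Hochberg adjustment over all genes. CPM are TMM-scaled, the prior count of log2 ratios in a pair was 2, and SE and 95% intervals come from the F statistic. With the block, P-values rest on how far the difference between siOGT and siControl varied over the 3 pairs of cultures of a single cell line. The study pairs samples of the same replicate, and deviations from group means correlated by 0.6883, 0.5254 and 0.3318 within the 3 pairs over 12373 genes at 1 CPM or more. Libraries of a group differed beyond counting noise, with a chi-square per degree of freedom of 19.44 or more. Alternatives were other scalings and filters, DESeq2 1.42.0, no block, each replicate left out and a stricter threshold. The main edgeR fit alone was tested on simulated counts, drawn with no shift between replicates.

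The 53 genes, the other lists and the letters searched in promoters were chosen with earlier results of these data known. Every member is named. Values in each library are given for the lowest and highest member of each role group, members not called, and CCNB1, CDK1, PLK1, TOP2A, MKI67 and FOXM1, and in each further list the extremes and called genes that moved against the rest are named. Coordinates and lengths are from GENCODE 44 (hg38) and promoters from RefSeq (GRCh38.p14).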

Additional observations from a re-analysis of the deposited data

How the results depend on the processing

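The analysis used here called 36 members lower and 1 higher. The counts stayed within 1.5 times of this with median-ratio size factors, library totals, no filter, a stricter filter (filterByExpr) and DESeq2 with the replicate block, which kept 36, 34, 36, 35 and 32 of the 36 genes. Without the replicate block, that is without pairing, edgeR called 1 member lower and 0 higher, 2 other mitosis genes lower and 130 of all genes. At an unadjusted p of at most 0.05 it gave 30 members lower, a threshold not counted over all genes. DESeq2 without the replicate block called 16 members lower and 0 higher, 11 other mitosis genes lower and 849 of all genes, and DESeq2 with the block 2415 of all genes. At an adjusted p of at most 0.01, 23 members were called lower, 0 higher and 2083 of all genes. With each replicate left out in turn, members called lower ranged from 15 (without replicate 1) to 33 and members called higher from 0 to 1, other mitosis genes called lower from 11 (without replicate 1) to 39, and all genes called from 1803 (without replicate 1) to 3439. Fits with a replicate left out have fewer samples, and why replicate 1 mattered most was not tested. They also differ in prior degrees of freedom, which set how far each gene's variance is drawn to the common trend. These values were 24.2 without replicate 1, infinite without replicate 2 and 14 without replicate 3, beside 15.5 in the main fit. The edgeR fit without the replicate block had the lowest value, 5.82, so its calls differ from the main fit in more than pairing. The counts are therefore not fully comparable. No member that was called changed sign. Among members not called, PLK1 and MYBL2 turned to log2 fold changes of 0.005 and 0.008 with library totals alone, under which the median of all genes was 0.029, and with each replicate left out in turn PLK1 ranged from -0.089 to 0.044, ESPL1 from -0.064 to 0.028 and BUB3 from -0.098 to 0.011. Scaling by library totals gave 1614 genes lower and 2113 higher, beside 1881 and 1885. With 3 pairs and standard errors of 0.064 to 0.094, changes near the middle of the list are close to what could be called.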
